A study of Caenorhabditis elegans with 9 samples.

Results

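The piRNA entries cel-piR-10036, cel-piR-6101 and cel-piR-2077 are 3 of the 15913 entries of piRNAdb, a database of piRNA sequences, on which small RNA reads of Caenorhabditis elegans were counted. They were picked by name because they had the highest mean sense level over the 9 libraries, so their place at the top is given as a description with no test. All 3 were among the 1067 entries with enough reads to be tested, out of 5252 with any sense read. The libraries came from whole adult hermaphrodites, 3 each of the prg-1(∆PAZ-domain) mutant (PAZ-deletion), the prg-1(Rnase-dead) mutant (RNase-dead) and wild type. Each sample held 20 to 30 animals kept at 25 °C and collected as adults 24 h past mid-L4, the last larval stage. No allele number, strain background or transgene is named for any group, and the growth text calls the animals male in 1 place, where the titles say hermaphrodite. The tables hold no level of the prg-1 transcript or protein, so no measurement of the targeted gene stands behind the genotype labels.

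A piRNA is a short guide RNA bound by an Argonaute protein of the Piwi clade, which in this worm is PRG-1, encoded by prg-1. Worm piRNAs are made in the germ line from many short genes, each giving 1 piRNA, and most of those genes lie in clusters on chromosome IV. Bound to PRG-1, a piRNA pairs with germline transcripts and recruits an amplification step that makes secondary small RNAs and silences the target. The PAZ domain of an Argonaute anchors the 3′ end of the bound guide, and the RNase (slicer) activity cuts a paired target. Without PRG-1, worm piRNAs do not accumulate. The tables give neither a sequence nor a position for any entry, so none of the 3 is printed or placed in the genome here, and the genes or targets behind them are not named.

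Libraries held 1022428 to 3121968 genome-mapped reads, and 1714 to 20802 sense piRNA reads. Each level is given in RPM, the sense reads of an entry for every 1000000 reads mapped to the genome, which is the denominator named in the study design. A small RNA read spans the whole molecule, so RPM values of different entries can be set side by side without a length correction, although ligation and amplification can favour one sequence over another. The whole-animal libraries cannot tell fewer germ cells from less piRNA per cell. Nothing in the labels says that the replicates came from separate cultures, so each p-value refers to these libraries only, and the spread among replicates may be technical. The PAZ-deletion replicate 1 library was the shallowest and held 18 reads of the 3 entries together, and ranges without single libraries are given below.

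The piRNA entry cel-piR-10036 was the most abundant in every RNase-dead and wild-type library and was scarce in every PAZ-deletion library. It had 4, 35 and 22 reads in the PAZ-deletion libraries, or 3.91, 16.5 and 13.0 RPM. It had 1661, 1098 and 1130 reads in the RNase-dead libraries, or 532, 517 and 486 RPM. In wild type it had 1329, 606 and 1566 reads, or 548, 388 and 536 RPM. The PAZ-deletion values lay far below all the others, while the RNase-dead and wild-type values overlapped, with wild type replicate 2 the lowest of those 6 libraries. Means were 11.2 ± 6.52 RPM in PAZ-deletion, 512 ± 23.5 RPM in RNase-dead and 491 ± 89.1 RPM in wild type (SD, n = 3 each).

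The second entry, cel-piR-6101, had 6, 31 and 16 reads in PAZ-deletion, or 5.87, 14.7 and 9.48 RPM. It stood at 397, 317 and 358 RPM in RNase-dead, from 1240, 673 and 833 reads. In wild type it stood at 315, 179 and 263 RPM, from 764, 279 and 769 reads. Here the 3 genotypes did not overlap at all, and the lowest RNase-dead library lay just above the highest wild-type one. Such a lack of overlap was not counted over the other entries. Means were 9.9999 ± 4.42 RPM in PAZ-deletion, 357 ± 40.2 RPM in RNase-dead and 252 ± 68.9 RPM in wild type (SD, n = 3 each).

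The last of the 3, cel-piR-2077, had 8, 28 and 31 reads in PAZ-deletion, or 7.82, 13.2 and 18.4 RPM. It was at 293, 246 and 269 RPM in RNase-dead, from 915, 522 and 626 reads. In wild type it was at 219, 169 and 259 RPM, from 532, 264 and 757 reads. PAZ-deletion was again far below, and RNase-dead overlapped wild type. Means were 13.1 ± 5.27 RPM in PAZ-deletion, 269 ± 23.7 RPM in RNase-dead and 216 ± 45.1 RPM in wild type (SD, n = 3 each). As the plot of levels by library shows, PAZ-deletion replicate 1 was the lowest library for all 3 entries, and wild type replicate 2 was the lowest outside PAZ-deletion for all 3.

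**Figure D1:**
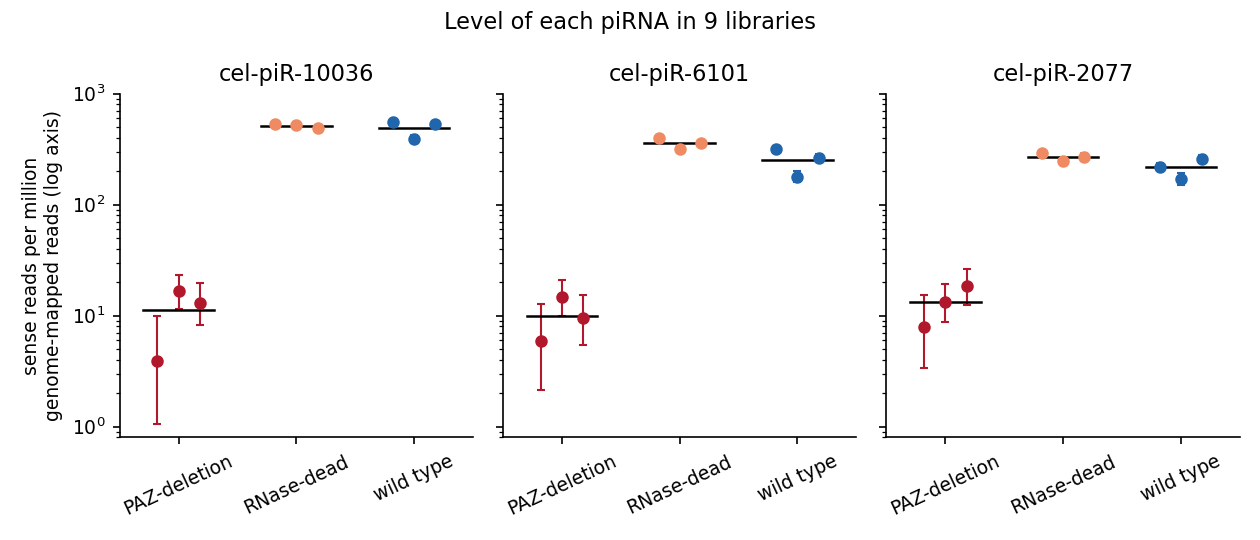
Sense level of cel-piR-10036, cel-piR-6101 and cel-piR-2077 in each library, in RPM on a log axis. Points are libraries (replicates 1 to 3 from left to right within a genotype), bars are exact Poisson 95% intervals of the read count, and black lines are group means; PAZ-deletion libraries sit between 3.91 and 18.4 RPM, and all RNase-dead and wild-type libraries between 169 and 548 RPM.

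In the order of levels, cel-piR-10036 came first, then cel-piR-6101, then cel-piR-2077, in each of the 6 RNase-dead and wild-type libraries. The next entry in both of these genotypes was cel-piR-7578, with a mean of 142 ± 11.9 RPM in RNase-dead and 82.0 ± 9.11 RPM in wild type (SD, n = 3 each), so a gap lay between cel-piR-2077 and the entry below it. Over all 9 libraries the mean was 166 RPM for cel-piR-2077, the last inside the set, and 75.6 RPM for cel-piR-7578, the first outside. The order of cel-piR-6101 and cel-piR-2077 was not resolved by counting in every wild-type library. The ratio of cel-piR-2077 to cel-piR-6101 reads was 0.946 in wild type replicate 2 (exact 95% interval 0.797 to 1.12) and 0.984 in replicate 3 (0.889 to 1.09), but 0.696 in replicate 1 (0.622 to 0.779). In PAZ-deletion the order was lost. By mean level there, cel-piR-2077 ranked 12, cel-piR-10036 ranked 16 and cel-piR-6101 ranked 18, and their ranges overlapped one another. The leading entry of PAZ-deletion was cel-piR-14240, at a mean of 95.3 RPM.

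Together the 3 entries held 1.05%, 2.40% and 2.09% of sense piRNA reads in the PAZ-deletion libraries (exact binomial 95% intervals 0.624 to 1.65, 1.94 to 2.93 and 1.63 to 2.63%). They held 18.3%, 19.1% and 18.2% in RNase-dead, with intervals of 17.8 to 18.9, 18.4 to 19.8 and 17.6 to 18.9%. In wild type they held 18.3%, 22.4% and 21.9%, with intervals of 17.6 to 18.9, 21.3 to 23.6 and 21.2 to 22.6%. The wild-type spread was wider than counting error, since replicate 1 stood apart from the other two, and RNase-dead fell inside or below that spread. The stacked shares by library show that the largest part of each bar outside PAZ-deletion was cel-piR-10036. That entry alone held 7.98%, 9.15% and 7.95% in RNase-dead and 9.24%, 11.8% and 11.1% in wild type, so the 2 genotypes just failed to overlap. For cel-piR-6101 the shares were 5.96%, 5.61% and 5.86% in RNase-dead and 5.31%, 5.44% and 5.44% in wild type, again without overlap but in the other direction. Counting did not resolve the closest libraries of the 2 genotypes in either case, which says nothing about counts pooled over a genotype. For cel-piR-10036, RNase-dead replicate 2 had an exact 95% interval of 8.64 to 9.68% and wild type replicate 1 of 8.78 to 9.73%. For cel-piR-6101 the intervals were 5.20 to 6.03% in RNase-dead replicate 2 and 4.83 to 6.10% in wild type replicate 2. For cel-piR-2077 the shares were 4.40%, 4.35% and 4.40% in RNase-dead and 3.7%, 5.15% and 5.35% in wild type, which overlapped. The exact two-sided permutation p of RNase-dead against wild type in log2 share was 0.1, 0.1 and 0.7 for cel-piR-10036, cel-piR-6101 and cel-piR-2077, with 3 libraries against 3 and 0.1 the smallest p possible. How many other entries separated in share was not counted.

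**Figure D2:**
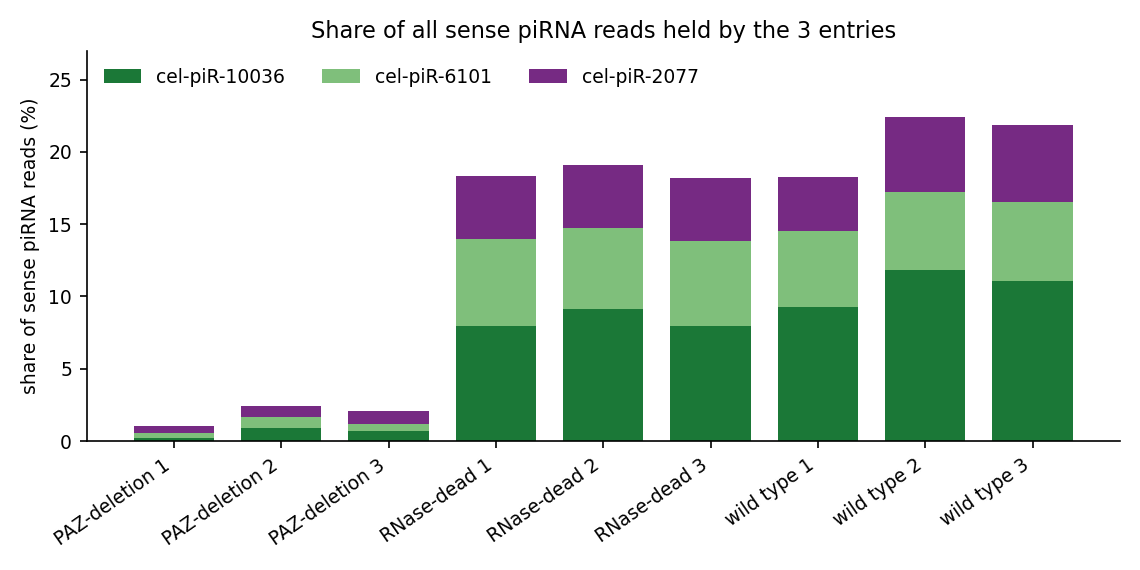
Share of all sense piRNA reads held by each of the 3 entries, in percent, as 1 stacked bar per library. The bars reach 1.05 to 2.40% in PAZ-deletion, 18.2 to 19.1% in RNase-dead and 18.3 to 22.4% in wild type.

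The first comparison asked how PAZ-deletion animals differed from wild type. All 3 entries fell. They were picked by a mean level that came mostly from the RNase-dead and wild-type libraries. The choice favoured entries high in those genotypes, so the tests against PAZ-deletion are not independent of it. Summing reads and genome-mapped reads over the libraries of a genotype gives a pooled rate, by which cel-piR-10036 was 40.1-fold lower (exact counting interval 31.1 to 52.5), cel-piR-6101 23.9-fold lower (18.2 to 32.0) and cel-piR-2077 16.2-fold lower (12.7 to 21.0). The log2 fold change was -5.37 ± 0.39 (SE) for cel-piR-10036 (edgeR quasi-likelihood test, FDR 2.46e-39). For cel-piR-6101 it was -4.59 ± 0.39 (edgeR FDR 4.77e-29), and for cel-piR-2077 -4.00 ± 0.38 (edgeR FDR 1.49e-23). The fitted decreases of the 3 followed the order of their wild-type levels, while their PAZ-deletion ranges overlapped. The wild-type level is part of the fold change, so this order shows no separate trend. The next entry in level, cel-piR-7578, broke the order, at -4.81 with a wild-type mean of 82.0 RPM. Of the 1067 entries tested, 19.2% were called lower and 1.31% higher in this comparison, with a median log2 fold change of -1.25 against -4.59 over the 3. Among the 76 well-measured entries, those averaging 20 or more reads per library, 54 were called lower and 2 higher, with a median of -2.23. Without any single library the log2 fold change stayed called and ranged from -5.75 to -5.04 for cel-piR-10036, -4.99 to -4.37 for cel-piR-6101 and -4.30 to -3.78 for cel-piR-2077. Over the 11 alternatives of scaling, test, filter, samples or block they stayed called, at -5.49 to -4.04 for cel-piR-10036, -4.67 to -3.23 for cel-piR-6101 and -4.07 to -2.69 for cel-piR-2077, with the values nearest 0 from library sizes of sense piRNA reads. With those library sizes, 78 entries were called higher and 75 lower, against 14 and 205 here. The edgeR spread is pooled over entries and does not measure the replicate spread of 1 entry. By the exact permutation test on log2 RPM each entry reached p = 0.1, the smallest for 3 libraries against 3, with no overlap. How many of the other entries also did not overlap was not counted, so this does not set the 3 apart.

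The decrease was larger than that of the other piRNAs summed, in a comparison that reuses the levels by which the 3 were picked. All other entries summed to 1659, 1808 and 1919 RPM in PAZ-deletion and 4847, 2549 and 3782 RPM in wild type, so the PAZ-deletion mean was 48.2% of wild type (log2 difference -1.01 ± 0.28 SE, exact permutation p = 0.1). With library sizes set to the reads of those other entries, which tests each entry against them, the log2 fold changes were -4.35 for cel-piR-10036, -3.54 for cel-piR-6101 and -3.0 for cel-piR-2077, all called by edgeR. The mean rate of all sense piRNA reads differed by -2855 RPM between PAZ-deletion and wild type, and the 3 entries made up 32.4% of that difference, 16.8% from cel-piR-10036, 8.49% from cel-piR-6101 and 7.10% from cel-piR-2077. They did not stand at the far end of single entries. Among the 76 well-measured entries, 8 kept a smaller percentage of their pooled wild-type rate than cel-piR-10036 at 2.49%, 16 kept less than cel-piR-6101 at 4.19% and 20 kept less than cel-piR-2077 at 6.17%. The median entry of the 76 kept 16.9%, and 4 had no PAZ-deletion read.

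The second comparison, RNase-dead against wild type, gave no call for any of the 3 entries. The log2 fold change was 0.060 ± 0.31 for cel-piR-10036 (edgeR FDR 0.991), 0.50 ± 0.31 for cel-piR-6101 (FDR 0.547) and 0.32 ± 0.32 for cel-piR-2077 (FDR 0.759). In this fit 0 of 3 had an unadjusted edgeR p under 0.05, against 131 of the 1067 entries tested. DESeq2 called 0 of 3 with genome-mapped or with median-ratio size factors, where it called 23 and 4 entries in all. With so few entries reaching these thresholds, 0 of 3 does not set the 3 apart. Unadjusted p-values under 0.05 were met in other fits, at 0.00489 for cel-piR-6101 (edgeR FDR 0.1004, 0.53 ± 0.19) with a replicate block over only these genotypes and at 0.0463 for cel-piR-10036 (DESeq2 FDR 0.824, -0.39 ± 0.20) with median-ratio factors. Of all entries tested, 2.06% were called higher and 0.0937% lower, with a median log2 fold change of 0.32. RNase-dead lay above every wild-type library for cel-piR-6101 (exact permutation p = 0.1), but not for cel-piR-10036 (p = 1) or cel-piR-2077 (p = 0.2), with 3 libraries against 3. How many other entries also separated was not counted, so this does not set cel-piR-6101 apart. For cel-piR-6101 the margin between the closest libraries was within counting error, and it refers to genome-mapped reads as the denominator. By pooled rate RNase-dead stood at 101%, 138% and 121% of wild type for cel-piR-10036, cel-piR-6101 and cel-piR-2077. The exact counting intervals were 96.8 to 106, 130 to 147 and 113 to 130%, and they leave out the spread among replicates. The 3 entries were 12.3% of the mean gain of 1458 RPM in all sense piRNA reads, and all other entries averaged 5005 ± 434 RPM in RNase-dead and 3726 ± 1150 RPM in wild type (SD, n = 3 each, exact permutation p = 0.2).

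The directions for cel-piR-10036 and cel-piR-2077 depended on the denominator. With library sizes from all sense piRNA reads, the log2 fold changes were -0.36 for cel-piR-10036, 0.11 for cel-piR-6101 and -0.11 for cel-piR-2077, none called, and the median of all tested entries moved to -0.028. All entries called then split into 10 higher and 7 lower, against 22 and 1 here. The last segment of chromosome I, assigned by segment order and length, holds 4 annotated ribosomal RNA genes and took 1.64 to 2.62% of genome-mapped reads in RNase-dead and 3.83 to 14.3% in wild type. Without it in the denominator the values were -0.058 for cel-piR-10036, 0.38 for cel-piR-6101 and 0.20 for cel-piR-2077. Its part in the spread of the wild-type libraries was not tested.

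The mutants were also compared directly, and all 3 entries were lower in PAZ-deletion than in RNase-dead. The log2 fold change was -5.43 ± 0.39 for cel-piR-10036 (edgeR FDR 4.60e-40), -5.09 ± 0.40 for cel-piR-6101 (FDR 9.28e-35) and -4.31 ± 0.38 for cel-piR-2077 (FDR 8.32e-27). By pooled rate they stood at 2.46%, 3.03% and 5.09% of RNase-dead, with counting intervals of 1.88 to 3.17, 2.26 to 3.97 and 3.93 to 6.50%. Over the same 11 alternatives they stayed called, at -5.54 to -3.69 for cel-piR-10036, -5.14 to -3.34 for cel-piR-6101 and -4.36 to -2.58 for cel-piR-2077. In this comparison 27.7% of entries were called lower and 1.03% higher, or 63 lower and 3 higher of the 76 well-measured entries. With library sizes from sense piRNA reads, 94 entries were called higher and 80 lower, against 11 and 296 here. It shares its PAZ-deletion libraries with the comparison against wild type, and it too reuses the levels by which the 3 were picked. The 3 entries made up 25.6% of the difference of -4314 RPM between PAZ-deletion and RNase-dead in all sense piRNA reads.

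Across the 3 genotypes at once, the F statistic of log2 RPM, in an exact permutation test, gave p = 0.0357 for cel-piR-10036, 0.00357 for cel-piR-6101 and 0.00714 for cel-piR-2077, where 0.00357 is the smallest p it can give. Adjusted over the 1067 entries by the Benjamini-Hochberg method these were 0.122, 0.0595 and 0.0802. Of the 1067 entries 0 passed (0% called), with 64 at the smallest p and 0.0595 as the lowest adjusted value, while 344 had an unadjusted p under 0.05. On log2 share of sense piRNA reads the same exact permutation test gave p = 0.00357, 0.00357 and 0.025, or 0.0646, 0.0646 and 0.141 adjusted, with 0% of entries called and 272 at an unadjusted p under 0.05.

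The 10 most abundant entries did not all follow these 3. In PAZ-deletion against wild type, cel-piR-7578, cel-piR-6252, cel-piR-8214 and cel-piR-9316 fell, with log2 fold changes of -4.81, -3.37, -4.19 and -2.17 by edgeR. The entry cel-piR-7578, next below the 3 in level, thus lay between cel-piR-10036 and cel-piR-6101. Not called were cel-piR-12706 at 0.38 ± 0.34, cel-piR-156 at 0.87 ± 0.36 and cel-piR-9221 at -0.34 ± 0.37 (SE). In RNase-dead against wild type, none of the 10 was called, and the log2 fold changes of ranks 4 to 10 had a median of 0.78 and ranged from -0.63 to 0.83. The entry cel-piR-12706, at -0.63 ± 0.35, was the only one of the 10 with a negative value. The dot plot of the 10 entries sets these values beside those of the 3.

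**Figure D3:**
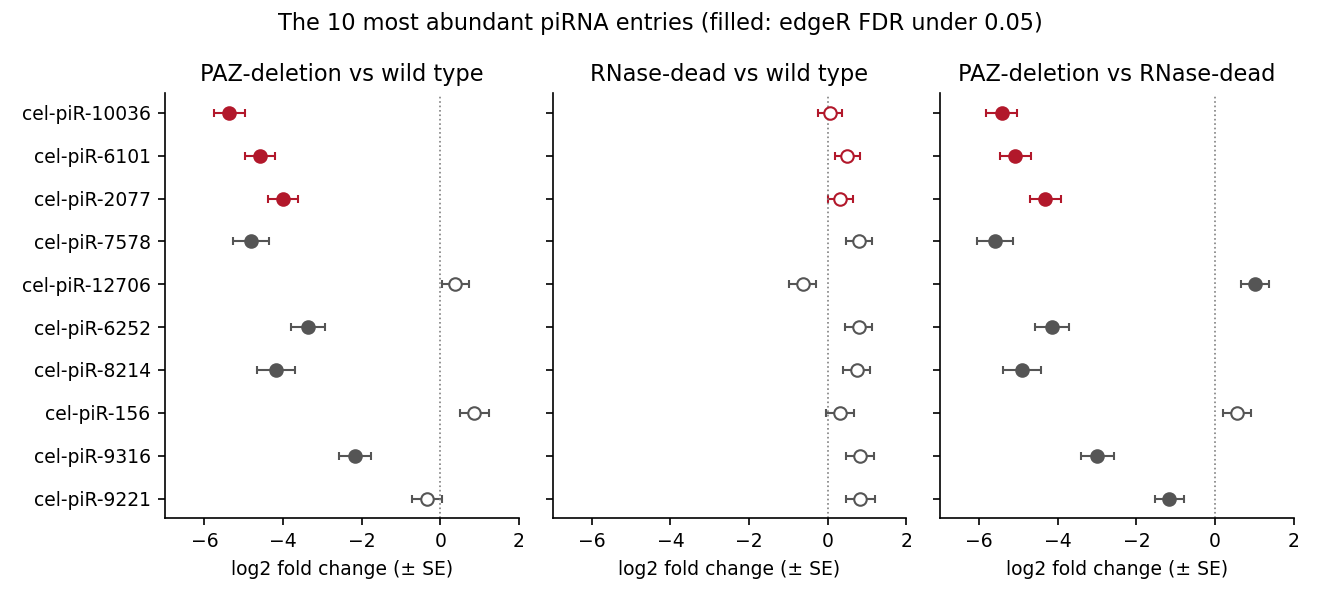
Fitted log2 fold change (± SE, edgeR) of the 10 entries with the highest mean level over 9 libraries, in order of that level from top to bottom, for each comparison. The 3 leading entries are in red and filled points have an FDR under 0.05; all 3 lie between -4.00 and -5.43 in both comparisons with PAZ-deletion and between 0.060 and 0.50 in RNase-dead against wild type.

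The 3 entries were also compared with one another inside each library, where the denominator cancels. The ratio of cel-piR-6101 to cel-piR-10036 reads was 1.5, 0.886 and 0.727 in PAZ-deletion, 0.747, 0.613 and 0.737 in RNase-dead, and 0.575, 0.460 and 0.491 in wild type. Every RNase-dead and PAZ-deletion library lay above every wild-type one. The ratio of cel-piR-2077 to cel-piR-10036 was 2.0, 0.8 and 1.41 in PAZ-deletion, 0.551, 0.475 and 0.554 in RNase-dead, and 0.400, 0.436 and 0.483 in wild type. Here PAZ-deletion lay above both other genotypes, which overlapped each other. The ratio of cel-piR-2077 to cel-piR-6101 was 1.33, 0.903 and 1.94 in PAZ-deletion and 0.738, 0.776 and 0.752 in RNase-dead, against the wild-type values given above, and RNase-dead lay inside the wild-type range.

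Both ratios to cel-piR-10036 differed over the 3 genotypes when the F statistic of log2 ratios was put to an exact permutation test. The p was 0.0107 for cel-piR-6101 to cel-piR-10036 and 0.00714 for cel-piR-2077 to cel-piR-10036. Ratios of other pairs of entries were not examined, so neither these values nor the lack of overlap sets the 3 apart. For cel-piR-2077 to cel-piR-6101 the exact permutation p was 0.0857. Adjusted over these 3 ratios the values were 0.0161, 0.0161 and 0.0857. The first 2 were no longer below 0.05 without any single RNase-dead or wild-type library, where the adjusted p was 0.0536 to 0.0964, and the last was 0.0143 without PAZ-deletion replicate 2. Between RNase-dead and wild type alone, the ratio of cel-piR-6101 to cel-piR-10036 averaged 0.699 ± 0.0746 (SD) for the 3 RNase-dead libraries and 0.509 ± 0.0593 for the 3 wild-type ones (exact permutation p = 0.1, the smallest possible). In PAZ-deletion the ratios rest on 53 to 67 reads per entry, and pooled over its libraries they were 0.869 for cel-piR-6101 to cel-piR-10036 (exact interval 0.590 to 1.28), 1.10 for cel-piR-2077 to cel-piR-10036 (0.765 to 1.58) and 1.26 for cel-piR-2077 to cel-piR-6101 (0.869 to 1.85). Each of these pooled intervals includes 1. Of the 9 ratios in single PAZ-deletion libraries, 1 had an interval that left out 1, that of cel-piR-2077 to cel-piR-6101 in replicate 3 (1.03 to 3.79). In wild type the pooled ratios were 0.518 (0.489 to 0.548), 0.444 (0.418 to 0.471) and 0.857 (0.8004 to 0.918) in the same order.

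**Figure D4:**
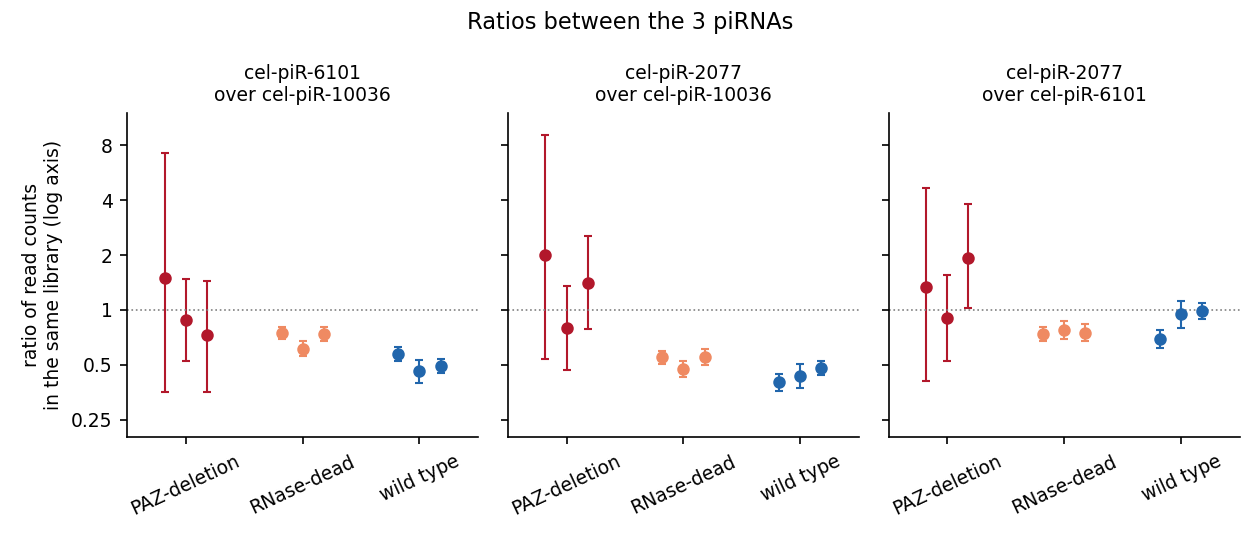
Ratio of the read counts of 2 entries in the same library, on a log axis, by genotype; points are libraries and bars exact binomial 95% intervals, and the dotted line marks equal counts. In wild type the ratios to cel-piR-10036 sit between 0.400 and 0.575, and in PAZ-deletion between 0.727 and 2.0 with wide intervals.

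In wild type, cel-piR-6101 and cel-piR-2077 varied less relative to cel-piR-10036 than in level. There the SD of log2 RPM was 0.28 for cel-piR-10036, 0.42 for cel-piR-6101 and 0.31 for cel-piR-2077, while that of the log2 ratio to cel-piR-10036 was 0.16 for cel-piR-6101 and 0.14 for cel-piR-2077, and that of cel-piR-2077 to cel-piR-6101 was 0.27. All other piRNA entries summed had an SD of 0.47 on the log2 RPM scale in wild type. In RNase-dead the SD of log2 RPM was 0.067, 0.16 and 0.13 for cel-piR-10036, cel-piR-6101 and cel-piR-2077, and that of the log2 ratio to cel-piR-10036 was much the same as in level, at 0.16 for cel-piR-6101 and 0.13 for cel-piR-2077. Replicates thus varied less in RNase-dead than in wild type for each of the 3, a difference that was not tested. In PAZ-deletion the same SD was 1.12, 0.66 and 0.62, on 4 to 35 reads per library.

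The entries whose profiles over the 9 libraries were most like each of the 3 included others of the 3 in each case. By Pearson correlation of log2(RPM + 1) over the 9 libraries, among the 76 well-measured entries, cel-piR-10036 was most like cel-piR-2077 (r = 0.993), cel-piR-6101 (0.993) and cel-piR-987 (0.986). The entry cel-piR-6101 was most like cel-piR-10036 (0.993), cel-piR-8214 (0.992) and cel-piR-987 (0.992). For cel-piR-2077 the closest were cel-piR-987 (0.993), cel-piR-10036 (0.993) and cel-piR-6101 (0.992). The entry cel-piR-987 averaged 0.5525 RPM in PAZ-deletion, 61.4 in RNase-dead and 43.4 in wild type. All entries share the libraries and their depth, and r was high in general, with a median over the well-measured entries of 0.889 to 0.927. With a pseudocount of 0.5 in place of 1, cel-piR-8991 replaced cel-piR-987 for cel-piR-6101, and cel-piR-238 replaced cel-piR-6101 for cel-piR-2077. By Spearman correlation none of these names remained among the closest 3 of any of the 3 entries. No other entry had the same sense counts as one of the 3, or counts within 10% of them in every library, which would be seen if 2 entries received all the same reads.

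No antisense read was counted for any of the 3 entries in any library. Against 7451 sense reads of cel-piR-10036, 4611 of cel-piR-6101 and 3683 of cel-piR-2077, a count of 0 allows antisense reads up to 0.0403%, 0.0651% and 0.0815% of the sense reads. Over all entries antisense reads came to 7.73 to 23.8% of sense reads per library. They lay elsewhere: 1538 entries had an antisense read, the most, 1223, on cel-piR-1599, which had 0 sense reads. Of the 50 entries with the highest mean sense level, 46 had no antisense read, and of the 1067 tested entries 87.3% had none. The absence of antisense reads was therefore shared with most sense-expressed entries.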

How the data were processed

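Small RNAs of 9 whole-animal samples were measured. The extraction kit was mirVana and the library kit TruSeq, per the labels' protocols, and an acid pyrophosphatase step made RNAs with a 5′ triphosphate clonable, so such RNAs can be part of the genome-mapped denominator. The submitters' processing notes name cutadapt 3.7 and FastQC 0.12.0. The deposited values were raw counts of sense and antisense reads per entry of piRNAdb 1.7.6, and raw counts per genome segment, whose first row is the genome-mapped total. The aligner, build and handling of multiply matching reads were not given in the sources used here. Therefore entries of near-identical sequence could share reads.

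Groups and replicate numbers came from the sample titles. Entries with 10 or more sense reads over all libraries, seen in 3 or more of them, were tested with edgeR 4.0.16 (glmQLFit and glmQLFTest, R 4.3.3) on raw counts, taking genome-mapped reads as library sizes and all 9 libraries in 1 fit. The FDR is by Benjamini-Hochberg over all 1067 entries with a threshold of 0.05, and the SE is the absolute log2 fold change over the square root of F. Exact permutation tests were two-sided on log2(RPM + 0.5), on log2 share or ratio with 0.5 added to the counts, with scipy 1.17.1 for exact intervals at 95%. Intervals and limits from 0 counts, taken as 3 counts, describe counting error alone, as no molecular identifiers are mentioned. The edgeR fit was also run on counts simulated with the spread of these data, which is not used as support for any value here. DESeq2 1.42.0, other scalings, filters and blocks were alternatives. Named entries were the 3, ranks 4 to 10 by mean RPM, and the 3 most correlated with each. The entries cel-piR-14240 and cel-piR-1599 were named after their values were seen. The 3 entries and the lists were chosen with earlier results of these data known. Ensembl release 115 (WBcel235) was used only to find the ribosomal RNA segment. The antisense fit was not run for the 3 entries, which had no antisense read.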

Additional observations from a re-analysis of the deposited data

How the results depend on the processing

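In PAZ-deletion against wild type and against RNase-dead, the 3 entries kept their direction and their edgeR or DESeq2 call under all 11 alternatives of scaling, test, filter, samples or block and without any single library. In RNase-dead against wild type no alternative gave a call. The log2 fold change of cel-piR-10036 changed sign to -0.36 with library sizes from sense piRNA counts, -0.40 with those counts without the 3 entries, -0.25 with TMM factors, -0.058 without the ribosomal RNA segment and -0.39 with DESeq2 median-ratio factors, and that of cel-piR-2077 to -0.11, -0.15, -0.0049 with TMM and -0.15 with DESeq2 median-ratio factors. Leaving out 1 library, cel-piR-10036 ranged from -0.083 (without wild type replicate 2) to 0.15. These scalings put the median of all entries at -0.083 to 0.21, against 0.32. For the ratios, leaving out 1 library gave adjusted p-values from 0.0107 to 0.0964 for cel-piR-6101 and for cel-piR-2077 to cel-piR-10036, and from 0.0143 to 0.179 for cel-piR-2077 to cel-piR-6101. The cause was not tested. The antisense alternatives were not run, since the 3 entries had no antisense read.

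The count of all piRNAs called in PAZ-deletion against wild type was 219, and 144 with library sizes without the 3 entries, 112 with DESeq2 median-ratio factors, 140 with no filter, 131 without PAZ-deletion replicate 2 and 144 without wild type replicate 1. In RNase-dead against wild type it was 23, and 15 with library sizes without the 3 entries, 13 with TMM, 7 without the ribosomal RNA segment, 4 with DESeq2 median-ratio factors, 5 with no filter and 2 to 44 without 1 RNase-dead or wild-type library. Between the mutants it was 307, and 174 and 165 with piRNA library sizes, 133 with DESeq2 median-ratio factors, 202 with no filter and 192 without PAZ-deletion replicate 2. Of the calls, the percentage higher with library sizes without the 3 entries, with TMM and with DESeq2 median-ratio factors was 37.5, 13.0 and 25.0% in PAZ-deletion against wild type (6.39% with genome-mapped reads), 53.3, 76.9 and 75.0% in RNase-dead against wild type (95.7%), and 40, 14.3 and 27.1% between the mutants (3.58%).

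Same-numbered libraries are not said to be paired, and over all tested entries their deviations from the group means correlated at -0.0705 to 0.108. Between RNase-dead and wild type they correlated at 0.0615 to 0.108 (different numbers -0.0945 to 0.00174). Over the 76 well-measured entries the ranges were 0.244 to 0.264 and -0.223 to -0.0304, so same numbers lay higher in both. In the fit of only the groups compared that takes replicate number as a block, RNase-dead against wild type gave 0.075 for cel-piR-10036, 0.53 for cel-piR-6101 and 0.34 for cel-piR-2077 (unadjusted edgeR p 0.67, 0.00489 and 0.0851, against 0.81, 0.0539 and 0.231 without the block, none called), with 44 calls over all entries, and PAZ-deletion against wild type gave -5.49, -4.61 and -4.04, with 106 calls. In RPM the RNase-dead library was above the same-numbered wild-type one in 3 of 3 pairs for cel-piR-6101 and cel-piR-2077 and in 1 of 3 for cel-piR-10036. The rate of all sense piRNA reads was also higher in RNase-dead in each pair, at 6663 against 5930, 5653 against 3285 and 6115 against 4840 RPM. The 3 of 3 pairs thus do not set those entries apart. Depth limits the PAZ-deletion values most (4 to 35 reads).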
